A study of Mus musculus with 12 samples.

Results

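The nuclear genes for the subunits of the 5 oxidative phosphorylation complexes were described in the livers of mice with carbon tetrachloride (CCl4) fibrosis. They were chosen by their symbols, as every entry named Nduf with the letter a, b, c, s or v and a digit, Sdha to Sdhd, Uqcr, Cox4 to Cox8 or Atp5. Of the 21936 genes counted, 87 entries carried such a name, and the 80 with 10 or more reads in at least 3 of the 9 libraries were kept. Complex I held 36 of them, complex II 4, complex III 8, complex IV 15 and complex V 17. Of the 80, 2 are not subunits: Cox7a2l, which helps the complexes to assemble into supercomplexes, and Cox5b-ps, named as a pseudogene of Cox5b although GENCODE M21 lists it as protein coding. Ndufb1-ps bears the same suffix and was kept with complex I because RefSeq gives that name as a synonym of Ndufb1. Ndufa4 and Ndufa4l2 were counted with complex IV, to which the Ndufa4 protein belongs.

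The mice were male C57BL/6, bought at 6 weeks of age and adapted for 1 week. All received 1 mL/kg CCl4 in olive oil by the intraperitoneal route, 2 times a week for 8 weeks, so the groups share the injury and none of them is healthy. The LFG (liver fibrosis group) mice were killed at that point, the REG (regression group) mice were given 200 μL PBS, and the hADMSCs-Exo mice were given 250 μg of exosomes from human adipose mesenchymal stem cells in the same volume. Both were injected into the tail vein, repeatedly, 2 times in each of 4 weeks. REG and hADMSCs-Exo livers were taken after those 4 weeks, so LFG differs from both in time as well as in treatment. Each group had 3 libraries of whole-liver RNA, and a further group of the series, treated with the stem cells themselves, was not analysed here.

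Oxidative phosphorylation makes most of the ATP of a resting cell. Complexes I (NADH dehydrogenase) and II (succinate dehydrogenase) pass electrons to ubiquinone, complex III hands them to cytochrome c, complex IV (cytochrome c oxidase) reduces oxygen, and complex V (ATP synthase) uses the proton gradient that complexes I, III and IV build. Most subunits are encoded in the nucleus and a few, among them core subunits of complexes I, III, IV and V, in mitochondrial DNA, while complex II is wholly nuclear. Hepatocytes are rich in mitochondria and depend on them for urea synthesis, gluconeogenesis and the oxidation of fatty acids.

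Nuclear respiratory factor 1 (NRF1) is a known activator of respiratory chain genes, and its palindromic motif is a familiar feature of their promoters. RefSeq promoters of GRCm38.p6 were matched to 66 of the 80 genes, and the 250 bases before the start were searched on both strands. The NRF1 motif, read as GCGC, then any base, then T and again GCGC, was found in 12 of the 66 (18.2%), against 5.49% of 16877 gene promoters. The ETS motif CCGGAAGT was found in 3 (4.55%, against 4.0% of all), the SP1 motif GGGGCGGG in 14 (21.2%, against 21.0%) and the YY1 motif, read as AAGATGG and then CGG, in 0 (against 0.373%). Sdha and Cox6a1 are printed because they held 2 NRF1 matches each upstream of the gene start given in the deposited table, and because their transcripts later differ in the library LFG 3. Capitals mark the NRF1 matches and, in Cox6a1, also an SP1 match on the opposite strand.
Sdha, chr13:74350281-74350490, minus strand: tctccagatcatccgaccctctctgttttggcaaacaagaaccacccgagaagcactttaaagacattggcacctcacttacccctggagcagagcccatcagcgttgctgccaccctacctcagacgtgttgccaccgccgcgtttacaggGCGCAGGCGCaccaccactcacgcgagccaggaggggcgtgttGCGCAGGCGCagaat
Cox6a1, chr5:115348982-115349208, minus strand: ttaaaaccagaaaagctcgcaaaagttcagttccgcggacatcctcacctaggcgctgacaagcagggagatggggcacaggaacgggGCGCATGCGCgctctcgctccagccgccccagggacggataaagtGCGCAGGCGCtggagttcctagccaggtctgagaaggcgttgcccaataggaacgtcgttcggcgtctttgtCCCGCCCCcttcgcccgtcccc
A match is a run of letters and not a measured binding site. Genes with and without an NRF1 match had a median log2 fold change of -0.26 (12 genes) and -0.22 (54 genes) between hADMSCs-Exo and REG.

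The libraries held 13837445 to 19840917 counted reads and 13924 to 15248 detected genes, both lowest in LFG 3. The labels number the libraries of a group without naming the mice, so the p-values below measure the spread between these samples and cannot assign it to mice or to handling. No pair within a group agreed within sampling noise. Hepatocyte markers were abundant throughout: the 9 of 10 listed markers found in the table (Alb, Ttr, Apoa1 and others) summed to between 121503 and 180361 CPM (counts scaled to a common library total). The library LFG 3 stood apart from the other 8. Its TMM scaling factor was 0.808, against 1.38 for LFG 1, 1.09 for LFG 2 and 0.923 to 1.03 for the rest. Its markers of hepatic stellate cells lay 1.88 below their 9-library mean on the log2 scale (median of 10, deviation of -1.88), those of macrophages at -2.44 (10) and those of sinusoidal endothelium at -1.33 (10), while those of hepatocytes lay at -0.01 (9). Because whole liver was sequenced, fewer cells of a type and less RNA per cell cannot be told apart.

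The genes were among the more strongly expressed ones. Their median level was 51.2 FPKM (reads scaled by gene length and library total, which allows genes of different length to be compared), against 3.03 FPKM over 12760 genes with enough reads, and 73 of the 80 lay above the upper quartile of those genes, 9.11 FPKM. The mean levels reached 430 FPKM for Cox6a1, 281 for Atp5a1 and 278 for Atp5b. Cox6a1 encodes the subunit VIa form of non-muscle tissues, and Atp5a1 and Atp5b encode the alpha and beta subunits that form the catalytic head of ATP synthase. The median level per complex was 41.2 FPKM for complex I, 93.3 for complex II, 119 for complex III, 110 for complex IV and 50.04 for complex V.

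**Figure D1:**
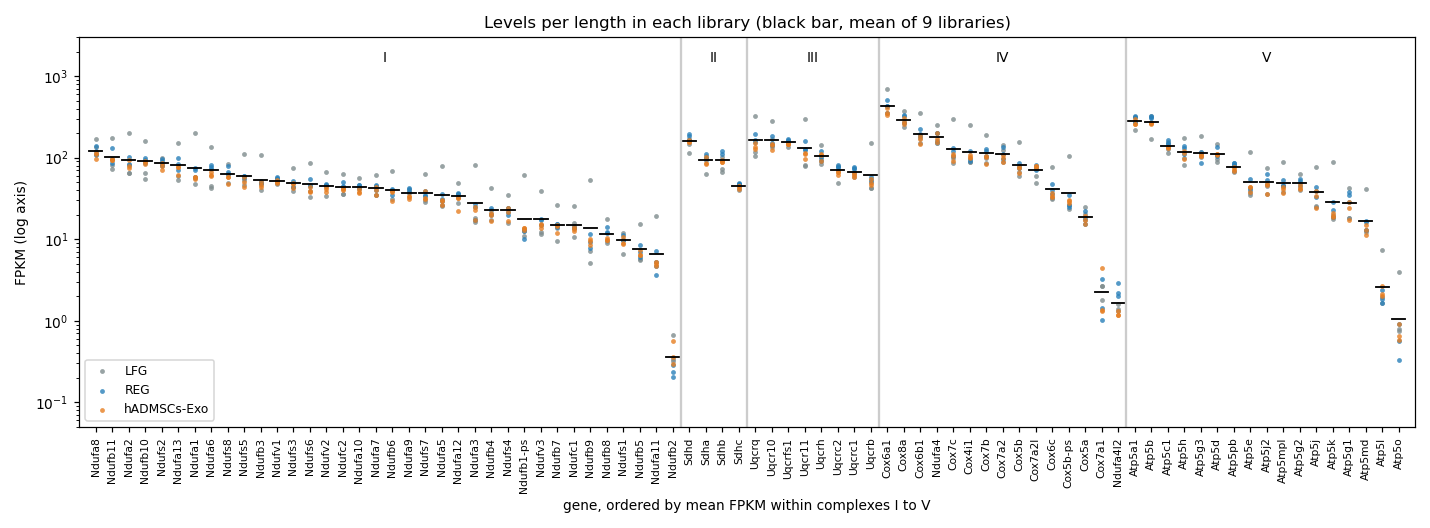
FPKM (log axis) of each of the 80 genes in each of the 9 libraries, grouped by complex and ordered by mean level. Grey points are LFG, blue REG and orange hADMSCs-Exo libraries, and the black bar is the mean of the 9. The medians of the complexes lie between 41.2 and 119 FPKM, the separate grey point above many bars is LFG 3, and Ndufb2, Cox7a1, Ndufa4l2, Atp5l and Atp5o lie far below their complexes.

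Within each complex the order ran from Ndufa8 (122 FPKM) to Ndufb2 (0.365) in complex I, from Sdhd (161) to Sdhc (45.1) in complex II, and from Uqcrq (165) to Uqcrb (61.1) in complex III. In complex IV it ran from Cox6a1 (430) to Ndufa4l2 (1.67), and in complex V from Atp5a1 (281) to Atp5o (1.05). In complex II the levels of Sdha (63.7 to 111 FPKM over the 9 libraries) and Sdhb (66.9 to 120) overlapped, Sdhb also reached the lower end of Sdhd (113 to 193), and Sdhc (40.5 to 48.3) stayed below all of them. The low values of Ndufb2, Atp5o and Atp5l belong to genes that every complex I or V needs. Those of Atp5o and Atp5l carry a limit of counting. The table gives Atp5l a length of 6443 bases for a main transcript of 544, Atp5o shares 35.5% of its 50-base stretches with other transcripts, a second Atp5o entry among them, and Atp5l shares 68.5%. In all, 14 of the 80 share over 20% of their 50-base stretches with transcripts of other genes, among them Atp5g2 (87.4%), Cox5b-ps (61.9%), Atp5h (47.9%) and Uqcrb (43.2%), so reads that fit more than 1 place make their levels uncertain.

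Several complex IV subunits have a second form used in muscle, heart, lung or testis, and these forms were near the limit of detection in liver. Cox4i1, the common form of subunit IV, stood at 116 FPKM, and its lung and hypoxia form Cox4i2 at 0.0864 (0 to 3 reads). Cox6a1 stood at 430 FPKM and the heart and muscle form Cox6a2 at 0.0782, also with at most 3 reads. Cox6b1 stood at 198 and the testis form Cox6b2 at 0.268 (0 to 9 reads), and Cox8a at 294 and the muscle form Cox8b at 0.0373 (at most 1 read). Cox7b2 and Cox8c, forms known from testis, were listed at 0 in all 9 libraries, as was the second Atp5o entry. Those 7 entries were left out by the read filter.

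Cox7a1 and Ndufa4l2 were the alternative forms that passed it. Cox7a1, the heart and muscle form beside Cox7a2 (110 FPKM), had 25, 16 and 20 reads in LFG 1 to 3, 29, 15 and 11 in REG and 39, 12 and 12 in hADMSCs-Exo, a mean of 2.23 FPKM. Ndufa4l2, a hypoxia-inducible relative of Ndufa4 (182 FPKM), had 30, 25 and 20 reads in LFG, 37, 62 and 47 in REG and 21, 24 and 22 in hADMSCs-Exo. For Ndufa4l2 every REG library held more reads than every library of the other groups, while the 3 groups overlapped for Cox7a1. The genes of the ATP synthase c subunit, which encode the same mature ring protein with different import sequences, stood at 115 FPKM for Atp5g3, 48.4 for Atp5g2 and 27.8 for Atp5g1.

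The comparison of hADMSCs-Exo with REG asks what the exosomes changed relative to PBS at the same time point. Of the 80 genes 0 reached an adjusted p under 0.05 with a log2 fold change of at least 1 in either direction in edgeR's quasi-likelihood test, against 0.00811% of the 12337 genes tested (1 gene). The smallest adjusted p among them was 0.407. At an unadjusted p under 0.05 there were 12, all of them lower in hADMSCs-Exo, which is 12 of 80 against 4.69% of all genes. DESeq2 gave 15 at that threshold (4.56% of all genes in that direction) and limma voom 20 (6.00%), and neither placed any past both thresholds.

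The values nonetheless lay to one side. In 75 of the 80 the log2 fold change was below 0, against 48.9% of all genes, and their median was -0.23 (0.851-fold), against 0.01 for all genes tested. In 22 of the 80 every hADMSCs-Exo library lay below every REG library, against 7.47% of all genes, and the reverse was seen for 1, Ndufb2, against 8.07%. The genes of a complex are not independent of one another, so these counts describe the list and are no test of it. The count at an unadjusted p under 0.05 moved with single libraries: it was 6 without hADMSCs-Exo 1 (4.69% of all genes), 4 without hADMSCs-Exo 2 (4.57%), 23 without hADMSCs-Exo 3 (4.45%) and 2 without REG 2 (2.34%), with medians between -0.31 and -0.17. With all 9 libraries in one fit it was 2 (1.29% of all genes), and with the replicate number as a block 7 (4.29%).

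**Figure D2:**
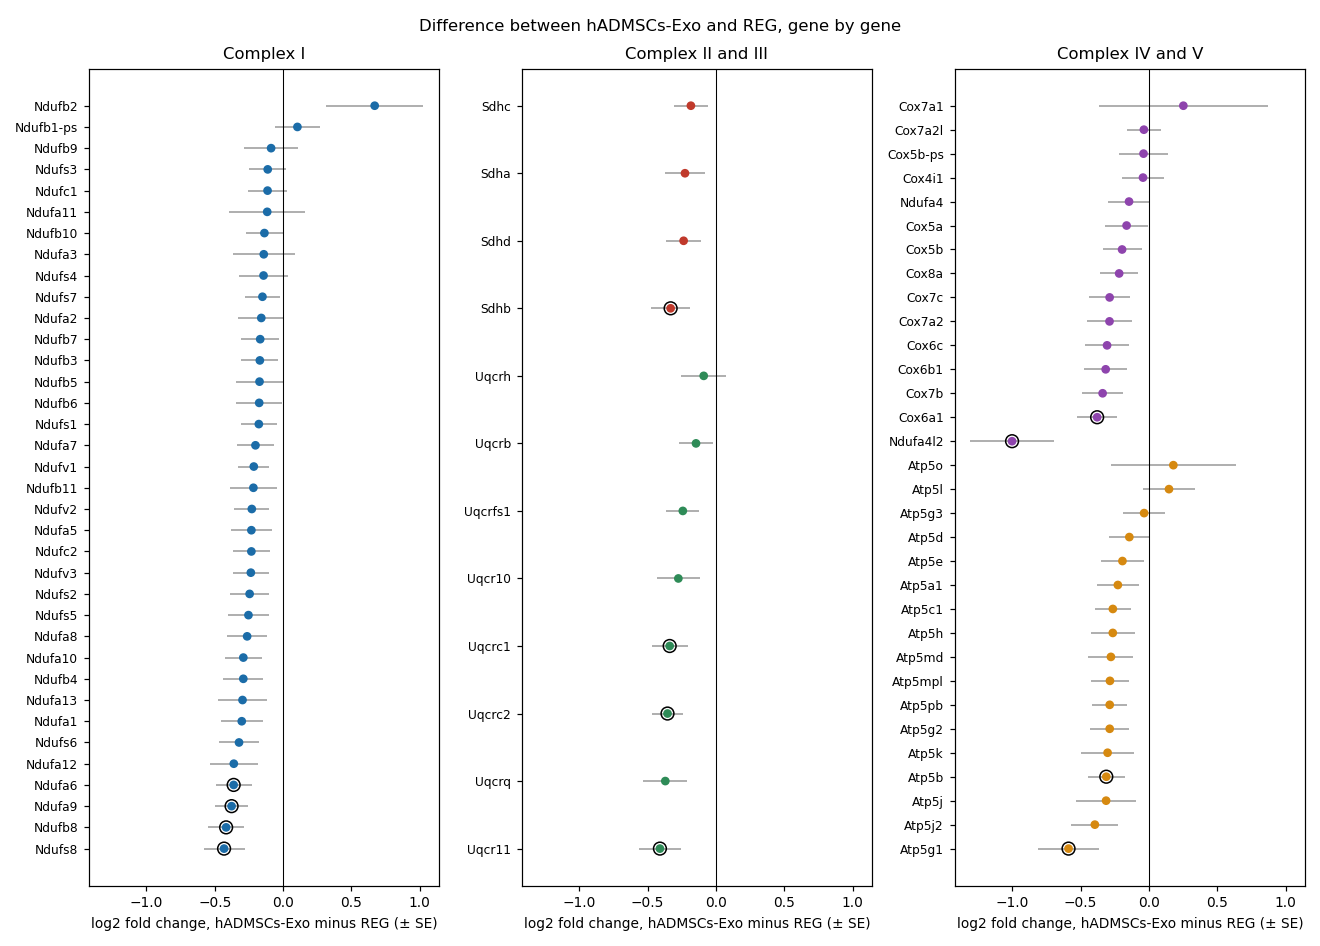
log2 fold change of hADMSCs-Exo minus REG for each of the 80 genes (horizontal axis, points with bars of ± 1 SE from edgeR), sorted within complexes I to V. Circles mark the 12 genes with an unadjusted p under 0.05. Nearly all points lie a little to the left of 0, 5 lie to the right, and Ndufa4l2 lies farthest to the left.

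In complex I the median log2 fold change was -0.22, with 34 of 36 genes below 0. It was -0.21 over the 7 core subunits of the matrix arm, which hold the flavin and the iron-sulfur clusters, -0.24 over 9 accessory subunits of that arm and -0.17 over 20 of the membrane arm. Ndufs8 (chr19:3908863-3912774, minus strand), a core subunit with iron-sulfur clusters, measured 6.40, 6.78 and 6.51 log2 CPM in REG and 6.17, 5.92 and 6.31 in hADMSCs-Exo (log2 of the CPM after scaling by TMM, the trimmed mean of M-values). All 3 hADMSCs-Exo libraries were below all 3 REG libraries. The difference was -0.43 ± 0.15 (SE), with an adjusted p of 0.430 by edgeR.

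Ndufa9 (chr6:126821721-126849136), an accessory subunit near the ubiquinone site, measured 6.36, 6.56 and 6.55 log2 CPM in REG and 6.00, 6.10 and 6.25 in hADMSCs-Exo. Ndufa6 (chr15:82350140-82354322), an accessory subunit of the LYR family, measured 7.07, 7.32 and 7.19 in REG and 6.76, 6.73 and 7.0 in hADMSCs-Exo. For both, as for the membrane arm subunit Ndufb8 (chr19:44548572-44555440; 5.51, 5.39 and 5.30 in REG, and 4.91, 4.93 and 5.11 in hADMSCs-Exo), the groups did not overlap. The differences were -0.38 ± 0.12 for Ndufa9, -0.36 ± 0.13 for Ndufa6 and -0.42 ± 0.13 for Ndufb8, with adjusted p of 0.411, 0.448 and 0.411 by edgeR.

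Ndufb2, a small membrane arm subunit, had the largest difference of complex I and an opposite sign. It measured 0.56, 0.91 and 0.42 log2 CPM in REG and 1.05, 1.73 and 0.91 in hADMSCs-Exo, with 22 to 53 reads in a library. The difference was 0.67 ± 0.36, with an adjusted p of 0.561 by edgeR. Besides Ndufb2, only Ndufb1-ps (0.11 ± 0.17) of complex I was above 0.

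All 4 genes of complex II were below 0, with a median of -0.23. Sdhb (chr4:140961203-140979193), the iron-sulfur subunit, measured 7.76, 8.19 and 8.04 log2 CPM in REG and 7.69, 7.61 and 7.73 in hADMSCs-Exo. The groups were apart by the gap between 7.73 and 7.76, and the difference was -0.33 ± 0.14 (adjusted p = 0.491 by edgeR). Sdha, the flavoprotein that oxidises succinate, differed by -0.23 ± 0.15, and the membrane anchors Sdhc and Sdhd by -0.18 ± 0.12 and -0.24 ± 0.13. The groups overlapped for Sdha and were apart for Sdhc and Sdhd.

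All 8 genes of complex III were below 0, with a median of -0.31. Uqcrc2 (chr7:120635176-120659524), a core protein of the complex, measured 7.67, 7.74 and 7.78 log2 CPM in REG and 7.36, 7.38 and 7.40 in hADMSCs-Exo, with little spread within either group. The difference was -0.35 ± 0.12 (adjusted p = 0.413 by edgeR). The other core genes, Uqcrc1 (-0.34 ± 0.13) and the Rieske iron-sulfur protein Uqcrfs1 (-0.24 ± 0.12), also had groups apart. Uqcr11 (chr10:80402997-80406830), a small accessory subunit, measured 6.40, 6.80 and 6.39 in REG and 6.12, 5.95 and 6.31 in hADMSCs-Exo, a difference of -0.41 ± 0.16 (adjusted p = 0.463 by edgeR). Uqcrh (-0.09 ± 0.16), the hinge protein, was the member nearest to 0.

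In complex IV, 14 of 15 genes were below 0 with a median of -0.22. The 11 main liver forms lay between -0.38 and -0.04, from Cox6a1 (-0.38 ± 0.14, adjusted p = 0.463 by edgeR) to Cox4i1 (-0.04 ± 0.16). Ndufa4l2 (ENSMUSG00000040280, chr10:127514967-127517154, plus strand) had the smallest p of the 80. It measured 1.26, 1.82 and 1.38 log2 CPM in REG and 0.44, 0.64 and 0.59 in hADMSCs-Exo, with LFG at 0.46, 0.60 and 0.93. REG alone was high, and the difference from hADMSCs-Exo was -1.0 ± 0.30 (0.499-fold, adjusted p = 0.407 by edgeR), on 20 to 62 reads a library. Markers of hepatic stellate cells moved the same way in this comparison: all 10 were lower in hADMSCs-Exo, 6 of them at an unadjusted p under 0.05, with a median of -0.98. Their summed level was 248 to 448 CPM in REG and 109 to 298 in hADMSCs-Exo, with none of the 10 at 0. In LFG the 2 did not move together. The median deviation of these markers was above 1 in LFG 1 and LFG 2, higher than in any REG library, and -1.88 in LFG 3. Ndufa4l2 was lower in all 3 of those LFG libraries than in any REG library, and highest of them in LFG 3. The part of stellate cell markers in the value of Ndufa4l2 was not tested. The hepatocyte markers summed to 163160 to 180361 CPM in REG and 121503 to 150483 in hADMSCs-Exo (6 of 9 below 0, median log2 fold change -0.16). The 1 hepatocyte marker at an unadjusted p under 0.05 was higher in hADMSCs-Exo, the transcription factor gene Hnf4a (0.43 ± 0.15, adjusted p = 0.432 by edgeR). The part of hepatocyte markers in the lower values of the other genes was not tested either. Markers of sinusoidal endothelium (9 of 10 below 0, median -0.61, 151 to 421 CPM in REG and 113 to 330.5 in hADMSCs-Exo) and of red blood cells (5 of 5 below 0, median -0.72) lay lower as well, with 0 of either list at an unadjusted p under 0.05. Of 6 cholangiocyte markers 4 were below 0 (median -0.42), and 2 of them had an unadjusted p under 0.05. Lymphocyte markers were above 0 in 8 of 10 (median 0.54, 27.4 to 49.04 CPM in REG and 44.9 to 66.8 in hADMSCs-Exo), with 1 at that level, and neutrophil markers in 7 of 7 (median 0.64) with 0. Macrophage markers were above 0 in 5 of 10 (median 0.02).

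In complex V, 15 of 17 genes were below 0 with a median of -0.28. The 5 genes of the F1 head lay between -0.31 and -0.14. Atp5b measured 10.45, 10.49 and 10.41 log2 CPM in REG and 10.10, 10.13 and 10.19 in hADMSCs-Exo, with groups apart and a difference of -0.31 ± 0.14 (adjusted p = 0.497 by edgeR). Atp5g1 (chr11:96068852-96075670), a c subunit gene, measured 7.19, 7.65 and 7.50 in REG and 6.36, 6.90 and 7.22 in hADMSCs-Exo. Its groups overlapped, and the difference of -0.59 ± 0.22 (adjusted p = 0.463 by edgeR) was the largest of the complex. The other c subunit genes differed less, by -0.29 ± 0.14 for Atp5g2 and -0.03 ± 0.15 for Atp5g3.

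Both short and long genes had medians below 0. In 5 classes of coding length, which were set after the values had been seen, the medians for the members were -0.29 (up to 300 bases, 22 genes), -0.20 (up to 600, 37 genes), -0.24 (up to 900, 9 genes), -0.29 (up to 1500, 7 genes) and -0.23 (above 1500, 4 genes). Over all genes the same classes gave -0.11, -0.07, -0.04, -0.01 and 0.07.

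The comparisons with LFG ask what 4 further weeks without CCl4, with PBS or with exosomes, changed in the fibrotic liver, and there the result turned on 1 library. Relative to each gene's 9-library mean on the log2 CPM scale, the median of the 80 genes was -0.61 in LFG 1, -0.44 in LFG 2 and 1.06 in LFG 3. The REG libraries lay at 0.06, 0.27 and 0.03, and the hADMSCs-Exo libraries at -0.13, -0.20 and 0.02. LFG 3 held the highest value of 66 of the 80 genes (it held the highest of 25.7% of all genes), and LFG 1 the lowest of 62 (19.8% of all genes). The 80 genes together took 0.999%, 0.890% and 1.37% of all reads in LFG 1 to 3, and between 0.942% and 1.18% in the other 6 libraries. By this share LFG 1 lay above every hADMSCs-Exo library (0.942% to 0.982%), so its low rank refers to the TMM-scaled values.

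**Figure D3:**
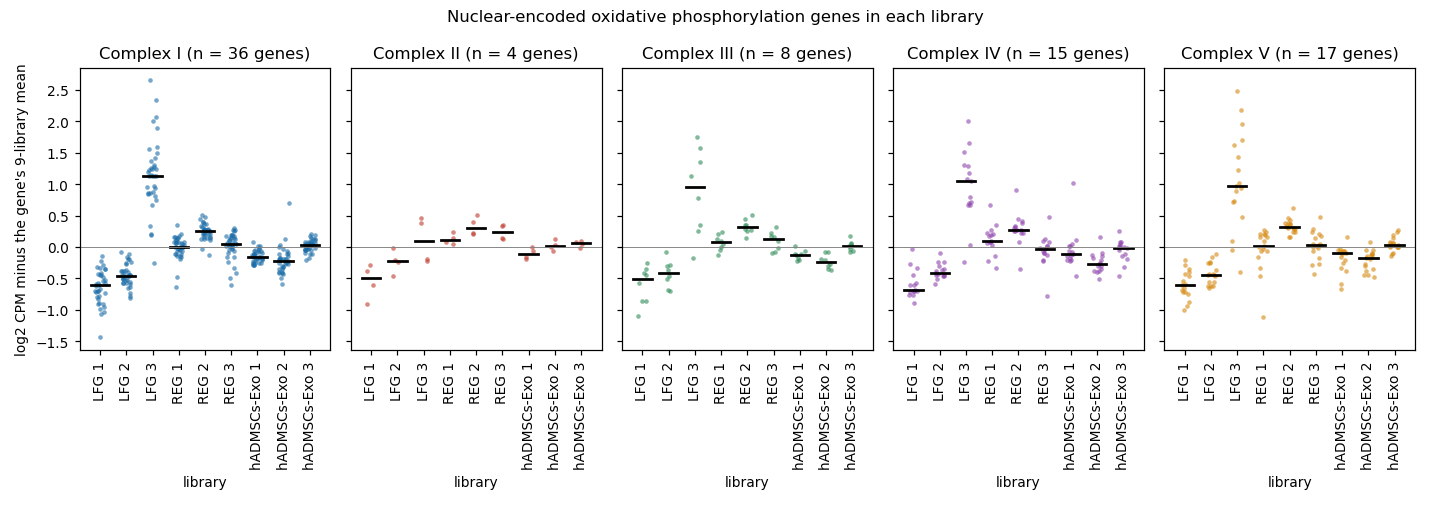
Each gene's log2 CPM minus its mean over the 9 libraries (vertical axis) in every library, in a panel for each complex. Points are genes and the black bar is their median. The medians of LFG 1 and LFG 2 lie below 0 in every panel, LFG 3 lies near 1 in complexes I, III, IV and V and near 0 in complex II, and most REG medians lie slightly above those of hADMSCs-Exo.

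Complex II lay nearer to its mean than the other complexes in LFG 3. Its median there was 0.10, against 1.14 for complex I, 0.96 for complex III, 1.04 for complex IV and 0.97 for complex V. Sdha measured 8.30, 8.57 and 8.35 log2 CPM in LFG 1 to 3, and Sdhd 7.24, 7.38 and 7.43, so LFG 3 lay among its group for Sdha and barely above it for Sdhd. Sdhb (6.77, 7.21 and 8.14) and Sdhc (6.58, 6.99 and 7.58) were higher in LFG 3. Some longer genes of other complexes were likewise below their mean: the core subunit Ndufs1 deviated by -0.25 in LFG 3, Atp5b by -0.40, Uqcrc2 by -0.18 and Atp5a1 by -0.05.

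The height of a gene in LFG 3 followed its coding length. The median deviation in that library was 1.2 for coding lengths up to 300 bases, then 1.14 up to 600, 0.75 up to 900, 0.25 up to 1500 and -0.24 above 1500. Over all genes the same classes gave 0.57, 0.30, 0.10, 0.01 and -0.10, so the members lay above other genes of their length in all classes but the last. In LFG 1 the members' medians were -0.66, -0.69, -0.46, -0.44 and -0.24 from the shortest class to the longest, and those of all genes rose through the classes from -0.30 to 0.14. The median coding length was 408 bases for the 79 members that have one and 1383 for the genes with enough reads. Exceptions were the short Sdhd and Cox7a2l (-0.18 and -0.24 in LFG 3) and Ndufv3, whose longest coding form has 1404 bases and which deviated by 1.57. The part that coding length had in the differences between LFG and the other groups was not tested.

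**Figure D4:**
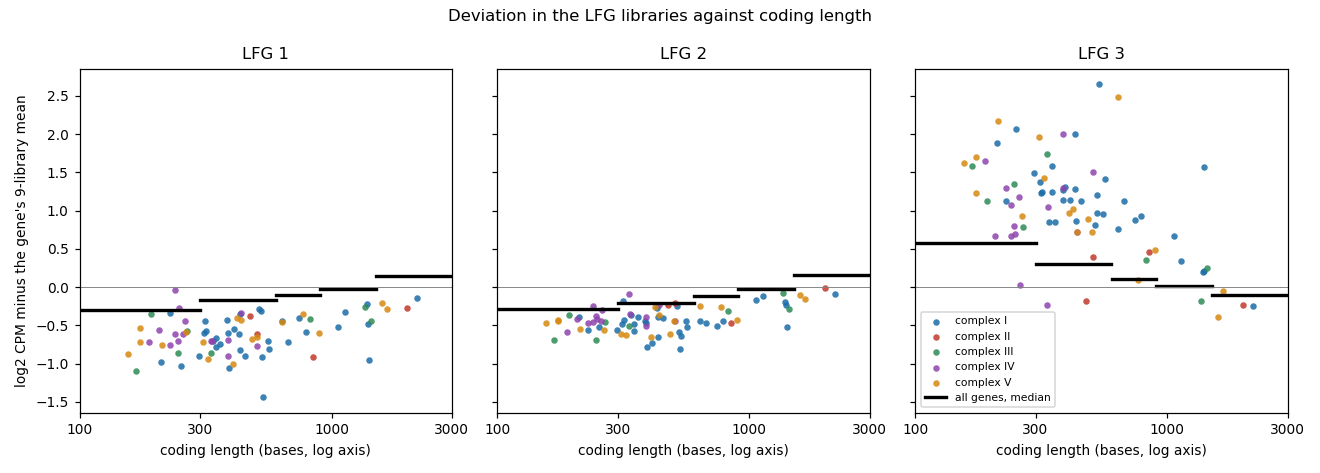
Deviation of each gene from its 9-library mean (log2 CPM, vertical axis) against coding length in bases (horizontal log axis) in LFG 1, LFG 2 and LFG 3. Coloured points are the members by complex and black lines the median of all genes in 5 length classes. In LFG 3 the points fall from about 1 to 2 at the short end to near 0 at the long end, with a shallower fall of the black lines, and in LFG 1 and LFG 2 they lie below 0.

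REG was compared with LFG first with all libraries. None of the 80 passed both thresholds in edgeR, nor did any of the 12517 genes tested (0%), and the median log2 fold change of -0.07 equalled that of all genes, with 47 of 80 below 0 against 55.9%. An unadjusted p under 0.05 was reached by 3, all higher in REG, which is 3 of 80 against 4.62% of all genes. DESeq2 gave 9, against 6.14% of all genes higher at that level, and limma voom 58, against 20% (2503 of 12517). In 9 of the 80 every REG library lay above every LFG library, against 8.91% of all genes. The 3 were genes that LFG 3 did not raise. Sdhd (chr9:50596357-50603812) measured 7.85, 8.01 and 7.74 log2 CPM in REG against the LFG values given above, and differed by 0.53 ± 0.19 (adjusted p = 0.396 by edgeR).

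Uqcrc2 measured 7.21, 7.39 and 7.29 log2 CPM in LFG and the REG values given above, a difference of 0.45 ± 0.18 (adjusted p = 0.431 by edgeR). Cox7a2l (chr17:83501918-83517330) measured 6.00, 6.61 and 6.47 in LFG and 6.93, 6.97 and 6.79 in REG, a difference of 0.53 ± 0.22 (adjusted p = 0.433 by edgeR). None of these groups overlapped. Without REG 1, without REG 2 or without LFG 1 0 of the 80 had an unadjusted p under 0.05, against 3.03%, 2.02% and 3.34% of all genes higher at that level. Without REG 3 or without LFG 2 there was 1, against 3.22% and 2.94%.

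The largest differences of complexes I, III, IV and V were downward and rested on LFG 3. Ndufb9 (chr15:58933756-58939488), a membrane arm subunit, measured 2.0, 2.79 and 6.09 log2 CPM in LFG and 3.29, 3.72 and 3.10 in REG, with a fitted difference of -1.32 ± 1.01. Atp5o (chr16:91925214-91931687), the stalk subunit also called OSCP, measured 0.32, 0.54 and 3.28 in LFG and -0.33, 1.07 and 0.36 in REG, with -1.63 ± 0.93. Uqcrb (4.76, 5.12 and 7.36 in LFG, 5.58, 5.77 and 5.55 in REG) and Cox5b-ps (2.77, 3.27 and 5.67, against 3.34, 3.88 and 3.44) had fitted differences of -0.60 ± 0.67 and -0.91 ± 0.75. In each of these genes LFG 3 was the highest library of all 9, and the LFG libraries 1 and 2 lay at or below REG except for Atp5o, whose REG libraries spanned them. Without LFG 3 the 4 differences were 1.01, 0.10, 0.73 and 0.58, in that order.

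Without LFG 3, which leaves 2 libraries in the LFG group, the list moved the other way. The log2 fold change was above 0 in 79 of 80 genes (49.8% of all genes), with a median of 0.69 (1.61-fold) against -0.01 for all genes, and Ndufb2 (-0.04) was the exception. At an unadjusted p under 0.05 there were 65, all higher in REG, against 18.2% of all genes, and at an adjusted p under 0.05 there were 40, against 7.88%. The groups were apart for 75 of the 80, against 25.8%. The library left out had held the highest value of 66 of the 80 genes. Leaving it out therefore favours this direction, and these counts describe the list and are no test of it. Both thresholds were passed upward by 7 genes, against 3.81% of all genes: Atp5g1 (1.3), Ndufa6 (1.24), Uqcr11 (1.18), Ndufb10 (1.07), Sdhb (1.05), Uqcrq (1.05) and Atp5j (1.02). They came from every complex but IV, whose main liver forms lay between 0.40 and 0.80. With library totals in place of TMM the median of the members was 0.28 while that of all genes was -0.43, with 70 genes above 0 (25.1% of all genes), 11 higher at an unadjusted p under 0.05 (5.31%) and 7 at an adjusted p under 0.05 (3.04%). The median deviation of the stellate cell markers was above 1 in both LFG 1 and LFG 2 and -1.88 in LFG 3, and that of the macrophage markers was 1.12, 0.71 and -2.44. Without LFG 3, 9 of 10 stellate cell markers (median log2 fold change of -0.80 in REG against LFG), 9 of 10 macrophage markers (-0.78) and 5 of 6 cholangiocyte markers (-1.03) were below 0, with 6, 0 and 3 of them at an adjusted p under 0.05. Hepatocyte markers were above 0 in 7 of 9 (median 0.47), with 1 at an adjusted p under 0.05, and deviated by -0.44, -0.03 and -0.01 in LFG 1 to 3. Red blood cell markers were above 0 in 5 of 5 (median 1.35, 1 at that level) and neutrophil markers in 4 of 6 (0.93, 0). Sinusoidal endothelium markers were above 0 in 6 of 10 (0.49, 0) and lymphocyte markers in 7 of 10 (0.39, 1 lower at that level). The part of these cell types in the values of either comparison with LFG was not tested.

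**Figure D5:**
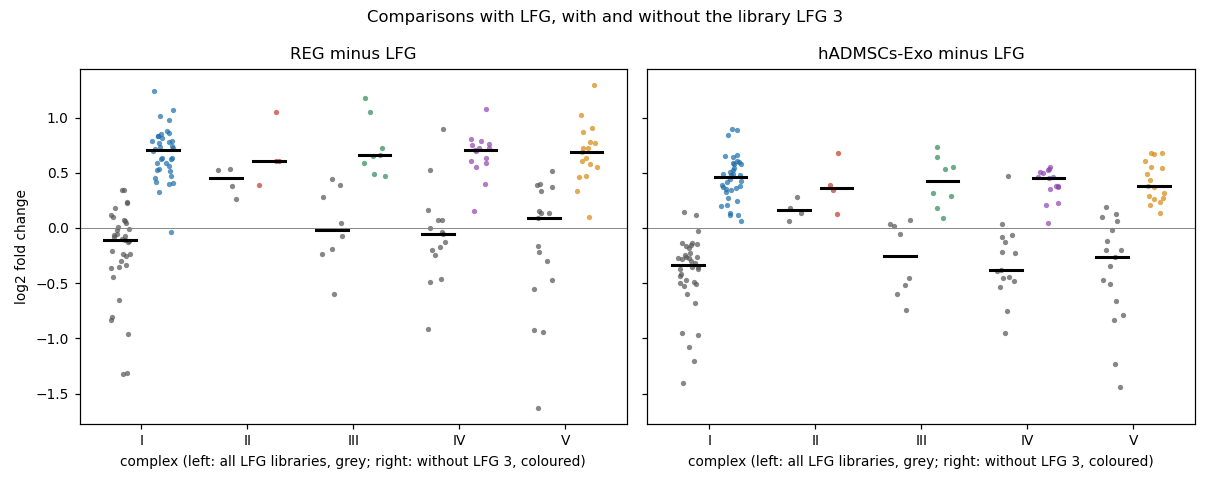
log2 fold change (vertical axis) of each gene for REG minus LFG (left panel) and hADMSCs-Exo minus LFG (right panel), by complex. Grey points use all 3 LFG libraries and coloured points leave out LFG 3, and black bars are medians. The coloured points lie above 0 in both panels, except Ndufb2 in the left one, with medians of 0.61 to 0.71 for REG and 0.36 to 0.46 for hADMSCs-Exo, while most grey groups straddle 0 or lie below it.

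The same libraries of LFG served for hADMSCs-Exo, so this comparison shares its controls with the last one. With all libraries the median log2 fold change was -0.29 (all genes, -0.06), with 65 of 80 genes below 0, against 56.9% of all genes. With the replicate number as a block the median was -0.12 (all genes, -0.01) and 55 of 80 were below 0. In edgeR 0 of the 80 passed both thresholds (0% of 12489 genes) and 0 had an unadjusted p under 0.05 (2.30% of all genes were higher at that level). DESeq2 gave 1 at that level, against 3.39% of all genes, and limma voom 4, against 12.4%. In Sdhd, Atp5b and Cox7a2l all hADMSCs-Exo libraries lay above all LFG libraries, which is 3 of 80 against 6.35%. All 4 genes of complex II were above 0, with a median of 0.16, against -0.34, -0.25, -0.38 and -0.27 for complexes I, III, IV and V.

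Without LFG 3 all 80 genes were above 0 (50.3% of all genes), with a median of 0.43 (1.35-fold) against 0.00 for all genes. At an unadjusted p under 0.05 there were 37, all higher in hADMSCs-Exo (12.8% of all genes), and at an adjusted p under 0.05 there were 2 (2.15%), Ndufb10 (0.90) and Ndufa6 (0.85), neither of them past the fold change threshold. The groups were apart for 63 (23.2% of all genes). This fit used no replicate block, and the library left out had been the highest for 66 of the 80 genes, which favours this direction. In the same comparison 10 of 10 stellate cell markers (median log2 fold change of -1.64), 6 of 6 cholangiocyte markers (-1.38) and 9 of 10 macrophage markers (-0.71) were below 0, with 5, 1 and 2 at an adjusted p under 0.05. Hepatocyte markers were above 0 in 8 of 9 (median 0.22, 0 at that level) and neutrophil markers in 5 of 7 (median 1.7, 2 at that level). So were 9 of 10 lymphocyte markers (0.63, 0) and 5 of 5 red blood cell markers (0.54, 0). Of the sinusoidal endothelium markers 7 of 10 were below 0 (-0.31, 0). The part of these cell types was not tested. With library totals the median was 0.10 and that of all genes -0.32, with 56 above 0 (27.4% of all genes) and 2 higher at an unadjusted p under 0.05 (4.32%). Per complex the medians without LFG 3 were 0.46, 0.36, 0.42, 0.45 and 0.38 for hADMSCs-Exo and 0.71, 0.61, 0.66, 0.70 and 0.68 for REG, in order from I to V. Limma voom, which gives each library a weight, put the medians of the 80 genes with LFG 3 kept at 0.58 for REG and 0.31 for hADMSCs-Exo, the opposite sign to edgeR, and passed 4 genes through both thresholds for REG (3.52% of all genes) and 0 for hADMSCs-Exo.

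The subunits encoded in mitochondrial DNA showed the same split among the LFG libraries. Their median deviation was -0.57, -0.23 and 1.27 in LFG 1 to 3, and LFG 3 was highest for all 11 that had enough reads. They took 6.24% of all reads in LFG 3 and 3.68% to 4.34% in the other libraries. Between hADMSCs-Exo and REG, 9 of the 11 were below 0 with a median of -0.11, and 1 had an unadjusted p under 0.05. That gene was mt-Atp6, a membrane subunit of ATP synthase, at 4.20, 4.26 and 3.94 log2 CPM in REG and 3.37, 3.40 and 3.48 in hADMSCs-Exo (-0.73 ± 0.15, adjusted p = 0.358 by edgeR), with groups well apart. The 13 mitochondrial entries summed to 39486 to 43347 CPM in REG and 36796 to 43382 in hADMSCs-Exo. The reads counted for mt-Atp6 were thus a very small part of theirs. How fully the transcripts of mt-Atp6 were counted was not tested, which limits its difference. The next gene in order of p was mt-Co3 (-0.26 ± 0.18). Cyc1 and Ndufab1, subunits whose names fall outside the rule, differed by -0.21 ± 0.13 and -0.13 ± 0.15.

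Genes that build or serve the complexes had medians nearer to 0. Of 42 assembly factors tested between hADMSCs-Exo and REG, 32 were below 0 with a median of -0.11 and 0 had an unadjusted p under 0.05. The smallest p belonged to the complex I factors Ndufaf1 (-0.33 ± 0.16) and Acad9 (-0.27 ± 0.15). In LFG 3 the assembly factors deviated by 0.34 (median). Of 14 genes for cytochrome c, carriers and coupling, 1 was higher and 1 lower at an unadjusted p under 0.05: Etfb, a subunit of the electron transfer flavoprotein (0.90 ± 0.32), and Slc25a4, an ADP/ATP carrier best known from muscle (-0.75 ± 0.26). Of 16 tricarboxylic acid cycle genes 11 were below 0, and 2 of these had an unadjusted p under 0.05, Idh3g (-0.36 ± 0.13) and Pdhb (-0.53 ± 0.21). The list's median was -0.18, with a deviation of only 0.09 in LFG 3.

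Regulators of mitochondrial gene expression lay on both sides of 0. Between hADMSCs-Exo and REG their median was 0.06 over 15 genes, with 9 above 0. Pprc1, a coactivator of the PGC-1 family, measured 2.97, 2.88 and 3.87 log2 CPM in REG and 4.42, 3.83 and 3.94 in hADMSCs-Exo (0.78 ± 0.30, adjusted p = 0.463 by edgeR). Ppargc1a, which encodes PGC-1 alpha, the main coactivator of mitochondrial biogenesis, measured 5.54, 5.45 and 3.09 in LFG, 3.61, 2.99 and 3.54 in REG and 4.57, 4.32 and 3.10 in hADMSCs-Exo. LFG 1 and LFG 2, in which the subunits were lowest after TMM scaling, were thus its highest libraries. By share of all reads the 80 genes were not lower in LFG 1 (0.999%) than in the hADMSCs-Exo libraries (0.942% to 0.982%). REG differed from LFG by -1.63 ± 0.59 for Ppargc1a (adjusted p = 0.401 by edgeR), and by -2.06 without LFG 3, the lowest value of the list. In that fit 1 of the 16 regulators was lower and 1 higher at an adjusted p under 0.05 by edgeR, against 1161 and 1020 of 12948 genes.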

How the data were processed

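Per the submitters' processing notes, reads were trimmed with cutadapt 1.15, aligned to GRCm38 with HISAT2 2.0.5 and counted with HTSeq 0.9.1, and DESeq 1.30.0 is also named there. Whether counting used strand is not given in the sources used here. The authors deposited raw counts per gene and FPKM for 9 libraries. The deposited FPKM equals counts scaled by the deposited gene length and library total (largest relative difference 9.19e-07) and was used only for levels between genes. The columns headed MSC_E were read as the hADMSCs-Exo libraries from their letter E, which no other source used here spells out.

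Counts were tested in edgeR 4.0.16 (R 4.3.3) by quasi-likelihood, two-sided, with TMM scaling, filterByExpr, the 6 libraries of each pair of groups and Benjamini-Hochberg adjustment over all genes tested. A call needed an adjusted p under 0.05 and a log2 fold change of at least 1. The fits were first checked on simulated counts. log2 CPM used a prior count of 2. Alternatives included DESeq2 1.42.0 and limma 3.58.1 (voom with a quality weight for each library). An exact permutation test of 3 libraries against 3 cannot go below p = 0.1 and was not used.

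Same-numbered libraries were checked for shared deviation from their group means. The correlations were 0.159, 0.00938 and 0.0336 for numbers 1 to 3 of hADMSCs-Exo and REG, 0.101, 0.308 and 0.180 for hADMSCs-Exo and LFG, and 0.415, -0.202 and 0.305 for REG and LFG. Differently numbered libraries were not compared, so these values cannot show a pairing, and the labels give none. The replicate block was run as an alternative only. No 2 libraries of the same group agreed within sampling noise.

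Genes with values in every library were the 6 of smallest unadjusted p under 0.05 in a comparison, the largest difference of each complex against REG and LFG, alternative forms, complex II, and the most and least abundant of each complex; other examples were chosen after their values were seen. The members and lists were chosen with earlier results of these data known. Coding lengths and shared 50-base stretches came from GENCODE M21, promoters from RefSeq.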

Additional observations from a re-analysis of the deposited data

How the results depend on the processing

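Calls past both thresholds stayed at 0 for hADMSCs-Exo against REG and against LFG under every alternative run. For REG against LFG they were 4 with limma voom and ranged from 0 to 7 on leaving out 1 library (7 without LFG 3), and were also 7 without LFG 3 with RLE size factors (3.75% of all genes). Genes at an unadjusted p under 0.05 for hADMSCs-Exo against REG were 20 with limma voom, 2 with all libraries in one fit and 7 with the replicate block, and ranged from 2 (without REG 2) to 23 (without hADMSCs-Exo 3) on leaving out 1 library.

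For hADMSCs-Exo against LFG they were 1 with upper-quartile scaling (3.26% of all genes were higher at that level), with DESeq2 and with all libraries (3.89%), 4 with limma voom, and 0 to 37 on leaving out 1 library (37 without LFG 3, 1 without LFG 2). For REG against LFG they were 0 with library totals (2.23% of all genes), 7 with upper-quartile scaling (6.85%), 9 with DESeq2, 58 with limma voom, 5 with all libraries (6.12%), 0 with the replicate block (3.89%), and 0 to 65 on leaving out 1 library (65 without LFG 3).

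Without LFG 3, combinations chosen after seeing the data gave 2 (library totals) and 38 (RLE, 13.1% of all genes) for hADMSCs-Exo and 11 and 66 (18.2%) for REG. The medians were -0.57 to 0.43 on leaving out 1 library for hADMSCs-Exo against LFG and -0.33 to 0.69 for REG against LFG, and 0.44 and 0.69 without LFG 3 with RLE. For hADMSCs-Exo against LFG the replicate block gave a median of -0.12 and 0 genes at an unadjusted p under 0.05 (2.75% of all genes). It moved no gene past both thresholds in any comparison. In every comparison the libraries share only a number.

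Against LFG, the REG differences of Ndufb9, Uqcrb, Cox5b-ps and Atp5o turned positive with limma voom (0.82, 0.56, 0.46 and 0.051). They also did so without LFG 3 with RLE (1.01, 0.73, 0.58 and 0.094), and the first 3 with library totals (0.63, 0.32 and 0.18). On leaving out 1 library they ranged from -1.84 to 1.01, -1.0 to 0.73, -1.35 to 0.58 and -2.08 to 0.096, positive without LFG 3 and lowest without LFG 1. The cause was not tested. The differences of Ndufa4l2, Ndufb8, Ndufa9, Ndufs8, Ndufa6, Ndufb2, Sdhb, Uqcr11, Uqcrc2 and Atp5g1 between hADMSCs-Exo and REG, and of Sdhd, Uqcrc2 and Cox7a2l between REG and LFG, kept their sign under every alternative run. Those of the other genes were not recomputed under all of them. Depth limits Ndufb2, Atp5o, Cox7a1 and Ndufa4l2, which held at most 107 reads in a library.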
